A study of Homo sapiens with 6 samples.

Results

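Untreated Hey cells were compared with untreated SKOV3 cells, both cell lines of human ovarian cancer, to describe what set the lines apart at baseline. Each side was 1 library of total RNA, measured by RNA sequencing as TPM (transcript abundance after scaling to a fixed sum), a level corrected for transcript length and for the size of the library. A gene was a member of the comparison when it reached a TPM of at least 1 in either library. Of 59008 gene symbols in the table, 15208 were members. The measure was the difference of log2(TPM + 1), Hey minus SKOV3, so that a positive difference is a higher level in Hey. A gene was called higher in a line at a difference of at least 1 in size, a 2-fold change of TPM + 1. This scale understates the change of genes at low TPM.

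The Hey cells were grown in MEM Eagle and the SKOV3 cells in RPMI-1640, each with 10% fetal bovine serum, and neither library had seen a drug. Cell line and medium cannot be told apart, because each medium was used with only 1 line. The series holds 4 more libraries, PGCCs (polyploid giant cancer cells) and daughter cells of each line, taken after 500 nM paclitaxel for 16 h and a recovery of 3 or 30 days. The title of the SKOV3 PGCC library names another recovery day than its treatment label, and the daughter titles name 1 clone each. Those libraries were used here to see whether a difference between the untreated lines was present again in other libraries of the same lines. They also entered a fit over all 6 libraries and a choice of genes on in 1 line and off in the other. Some of their values are given beside those of the untreated cells. No condition had replicates, so no p-value, error or interval was given for untreated Hey against untreated SKOV3, and the difference had no replicate check.

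Hey and SKOV3 are both used as models of epithelial ovarian cancer, a group of carcinomas that can keep the keratins, junction proteins and transcription factors of Müllerian epithelium or lose them for a mesenchymal programme. SKOV3 is known for an amplified ERBB2 gene, which encodes the receptor HER2. The p53 pathway raises CDKN1A, MDM2 and many other genes when DNA is damaged.

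In the untreated lines, 1861 genes were higher in Hey, 12.2% of those tested, and 4061 were higher in SKOV3, 26.7%. The median difference over all genes tested was -0.35, so a list of genes is read below against that median and not against 0, and its counts against 12.2% and 26.7%. Dividing the libraries by their median ratio gave 2623 genes higher in Hey and 3010 higher in SKOV3, which moved the share of Hey among the called genes from 31.4% to 46.6%. Quantile normalization gave 2737 and 2792 genes, and removal of a trend in GC content and transcript length gave 2289 and 2216 of the 13405 genes with both in the reference, where 1639 and 3324 were called with the trend kept. Of 12130 protein-coding genes tested, 1449 were higher in Hey and 2816 in SKOV3, and of 758 long non-coding RNA genes 90 and 303. GAPDH and ACTB, often used as references, were at 5699.5 and 3105 TPM in Hey and 2381 and 2080.1 TPM in SKOV3, differences of 1.26 and 0.58. The 2 columns summed to 920497 TPM in Hey and 912802 TPM in SKOV3, and 12663 and 14212 genes reached a TPM of 1. The share of TPM on the 37 mitochondrial genes was 2.64% in Hey and 9.17% in SKOV3, and that on 86 ribosomal protein genes was 26.3% and 12.3%. The median difference was -0.45 with the mitochondrial genes left out and -0.24 with the ribosomal protein genes left out as well. The ribosomal protein genes were not left out alone, and the part of these shares in the median was not tested. In bulk RNA, fewer cells that express a gene and less of its RNA per cell cannot be told apart.

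**Figure D1:**
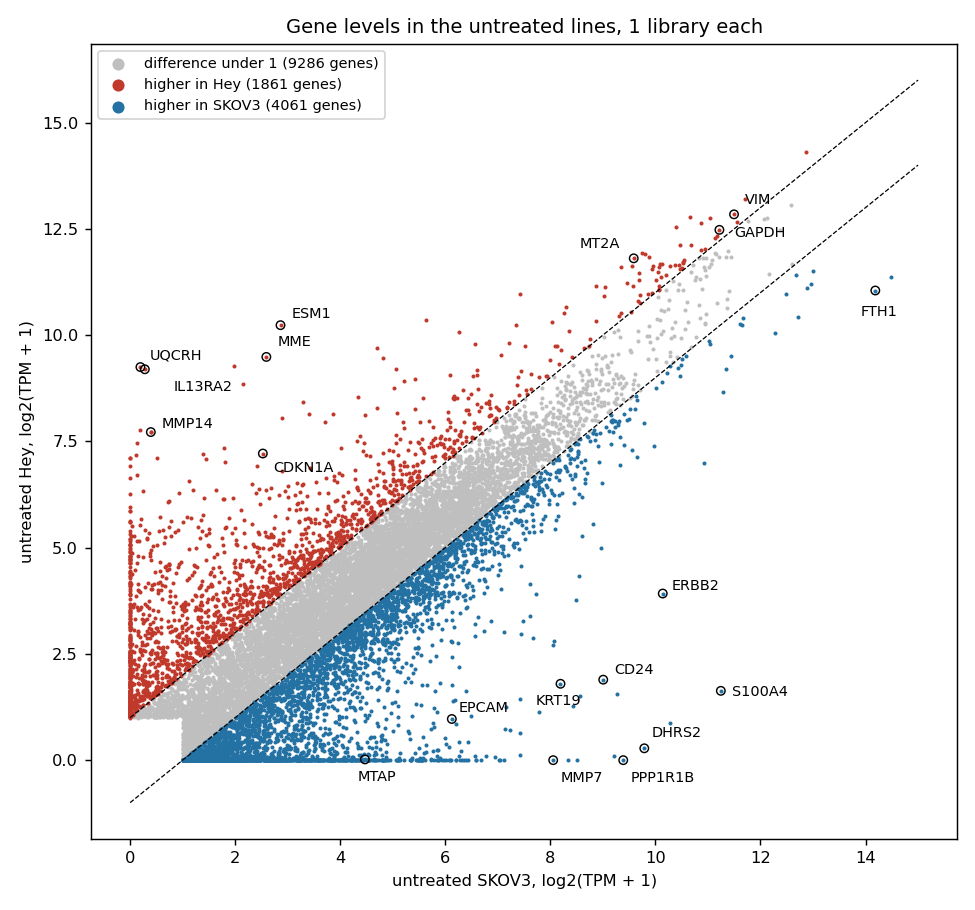
Levels of the 15208 genes tested, as log2(TPM + 1), in the untreated SKOV3 library (x axis) and the untreated Hey library (y axis). Dashed lines mark a difference of 1 either way, red points are higher in Hey, blue points are higher in SKOV3, and circled genes are named. UQCRH and IL13RA2 stand near the left edge at 607 and 586 TPM in Hey, while PPP1R1B and DHRS2 stand near the bottom edge at 669 and 883 TPM in SKOV3.

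Of the 12 widest differences in favour of Hey, UQCRH and MT1E are described further on. IL13RA2, a decoy receptor for interleukin-13, stood at 586, 1127 and 571 TPM in untreated, PGCC and daughter libraries of Hey, and at 0.214, 0.0349 and 0.765 TPM in those of SKOV3. ESM1, a secreted proteoglycan first described in endothelium, stood at 1204 TPM in untreated Hey and 6.28 TPM in untreated SKOV3, a difference of 7.37. PDPN, the surface mucin podoplanin, was at 177 TPM in Hey against 0.0884 TPM in SKOV3, and SRGN, the proteoglycan serglycin, at 614 TPM in Hey against 2.94 TPM in SKOV3. MMP14, a membrane-anchored protease that cleaves collagen, was at 209.7, 299 and 255 TPM in the Hey libraries and below 1 TPM in every SKOV3 library. IGFBP4, which binds insulin-like growth factors, was at 216 TPM in Hey and 0.138 TPM in SKOV3. TNC, the matrix protein tenascin C, was at 212 TPM in Hey and 0.318 TPM in SKOV3, a difference of 7.33. ENG, the TGF-beta co-receptor endoglin, was at 137 TPM in Hey and was listed at 0 in SKOV3. MME, the surface peptidase CD10, was at 717, 507 and 372 TPM in Hey and at 5.04, 2.41 and 0.0792 TPM in SKOV3. Every Hey library was thus above every SKOV3 library. CCN1, a matricellular protein and a target of YAP, was at 459 TPM in untreated Hey against 3.45 TPM in untreated SKOV3, a difference of 6.69, while its PGCC pair differed by 1.16 and its daughter pair by 2.67.

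The widest differences on the SKOV3 side were in genes of several kinds. S100A4, a small calcium-binding protein linked to cell motility, had 2427, 4816 and 304 TPM in the SKOV3 libraries and 2.10, 4.0 and 0.255 TPM in the Hey libraries, and its untreated difference of -9.61 was the widest of all protein-coding genes that reached a TPM of 10. DHRS2, a short-chain dehydrogenase, was at 883 TPM in untreated SKOV3 and 0.213 TPM in untreated Hey. CALB1, the calcium buffer calbindin, was at 1235 TPM in SKOV3 against 0.819 TPM in Hey. CD24, a surface glycoprotein of epithelial tumours, was at 513 TPM in SKOV3 against 2.72 TPM in Hey. CYP1B1, a cytochrome P450 that oxidises oestrogens and xenobiotics, was at 122 TPM in SKOV3 against 0.0526 TPM in Hey. MFAP5, a microfibril protein, was at 170.2 TPM in SKOV3 against 0.554 TPM in Hey, and MAL2, a protein of apical transport, at 93.5 TPM in SKOV3 against 0.0676 TPM in Hey. AMTN and COX7B2, at 131 and 95.1 TPM in untreated SKOV3, were both listed at 0 in untreated Hey. MMP7, the secreted protease matrilysin, was also listed at 0 in untreated Hey and stood at 265, 99.7 and 13.7 TPM in the SKOV3 libraries. MMP1, interstitial collagenase, was the only one of the 12 widest SKOV3 differences that was not present in the other libraries: it was -7.16 in untreated cells, -0.21 between the PGCC libraries and 0.54 between the daughter libraries, with 344, 114 and 0.342 TPM in SKOV3 and 1.41, 98.1 and 0.951 TPM in Hey.

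Epithelial genes were mostly lower in Hey. Of 43 genes of junctions, keratins and epithelial regulators, 33 were tested, 25 were higher in SKOV3 and 2 were higher in Hey, with a median difference of -2.24 against -0.35 over all genes. KRT19, a keratin of simple epithelium, was at 2.48, 3.60 and 0 TPM in untreated, PGCC and daughter Hey and at 292, 711 and 80.2 TPM in SKOV3. ELF3, an epithelial transcription factor, was listed at 0 in untreated Hey and stood at 76.4 TPM in untreated SKOV3. EPCAM, the epithelial adhesion molecule, was at 0.957 TPM in untreated Hey against 68.8, 43.6 and 8.15 TPM in the 3 SKOV3 libraries, and the SKOV3 daughter value was the lowest of these. CDH1, which encodes E-cadherin, was low in both untreated lines, being listed at 0 in Hey and standing at 1.47 TPM in SKOV3. The keratins of simple epithelium did not move as a block. KRT8 was at 464 TPM in Hey and 411 TPM in SKOV3 and KRT7 at 339 TPM in Hey and 417 TPM in SKOV3, while KRT18 stood at 518 TPM in Hey against 220.4 TPM in SKOV3, and reads of KRT8 and KRT18 can be shared with their processed pseudogenes. The tight junction gene CLDN1 stood at 224 TPM in Hey against 36 TPM in SKOV3. Checked against its markers, the label of an epithelial line held for KRT7, KRT8 and KRT18 in both untreated libraries and for KRT19 and EPCAM in SKOV3, while in Hey KRT19 and EPCAM were near 0.

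Among 28 markers of ovarian and Müllerian carcinoma, 15 were tested, 10 were higher in SKOV3 and 1 was higher in Hey, with a median of -2.41. PAX8, the lineage factor of the Müllerian tract, was present in both lines at 94.4 TPM in Hey and 65.6 TPM in SKOV3. WT1, a factor of serous carcinoma and mesothelium, was at 1.34 TPM in Hey and 0.545 TPM in SKOV3, and MUC16, which encodes CA125, was at 0.00100 TPM in Hey and 1.15 TPM in SKOV3. FOLR1, the folate receptor, was listed at 0 in untreated Hey and stood at 72.7, 132 and 3.04 TPM in untreated, PGCC and daughter SKOV3. SLPI, a secreted protease inhibitor, was at 1.36 TPM in Hey against 142 TPM in SKOV3. LGALS3BP, a secreted galectin ligand, was the member higher in Hey, at 98.9 TPM in Hey against 24.8 TPM in SKOV3, and in the PGCC pair its difference was -0.22.

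Mesenchymal genes leaned the other way but were not uniform. Of 31 genes tested, 19 were higher in Hey and 8 in SKOV3, with a median of 1.35. VIM, the intermediate filament vimentin, was at 7341 TPM in Hey and 2889 TPM in SKOV3, and CDH2, which encodes N-cadherin, at 85.1 TPM in Hey and 39.8 TPM in SKOV3. Both genes were thus well expressed in either line and differed by 1.35 and 1.08. Among the members higher in SKOV3 were S100A4, the actin-binding gene TAGLN at 53.7 TPM in SKOV3 against 0.162 TPM in Hey, and the tropomyosin gene TPM2 at 268 TPM in SKOV3 against 5.95 TPM in Hey. The median kept its sign under each scaling tried, and was 1.70 with the median ratio.

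**Figure D2:**
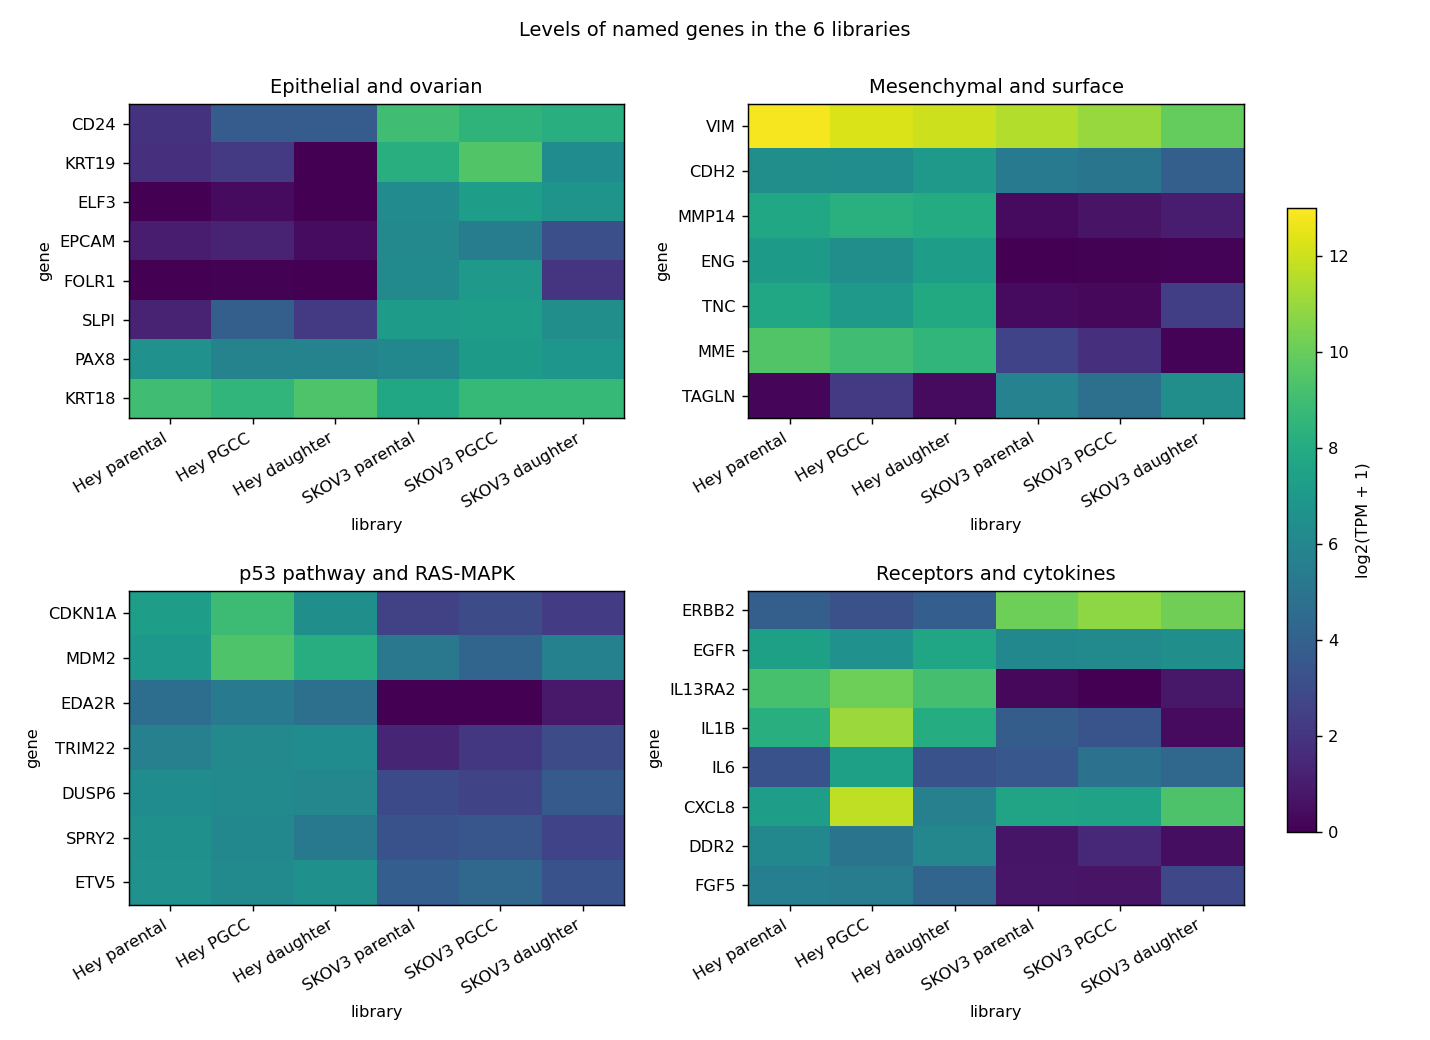
Levels of named genes, as log2(TPM + 1) by colour, in the 3 Hey libraries and the 3 SKOV3 libraries (columns), 1 library per cell. ENG, MMP14 and IL13RA2 are bright in the 3 Hey columns and dark in the 3 SKOV3 columns, KRT19, ELF3 and ERBB2 show the reverse, and CXCL8 is brightest in the Hey PGCC library.

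Genes of the matrix and of proteolysis differed in both directions. Of 36 collagen, laminin and integrin genes tested, 11 were higher in Hey and 14 in SKOV3, or 30.6% and 38.9%, and the order turned to 14 and 11 with the median ratio and 13 and 11 with the GC and length trend removed. ITGB4, the integrin of hemidesmosomes, was at 62.7 TPM in SKOV3 and 0.444 TPM in Hey, and its ligand chain LAMA3, part of laminin-332, was at 203 TPM in SKOV3 against 6.32 TPM in Hey. COL18A1 was at 56.3 TPM in SKOV3 against 1.18 TPM in Hey. In the other direction, COL13A1 was at 11.9 TPM in Hey against 0.0483 TPM in SKOV3, the vitronectin receptor chain ITGB3 at 39.9 TPM in Hey against 3.50 TPM in SKOV3, and the collagen receptor chain ITGA2 at 31.3 TPM in Hey against 3.54 TPM in SKOV3. Of 28 proteases and inhibitors, 9 were higher in Hey and 12 in SKOV3, and 11 and 9 with the median ratio. SERPINB5, the epithelial serpin maspin, was at 72.3 TPM in untreated SKOV3 against 0.791 TPM in Hey, but at 72.3, 40.7 and 0.546 TPM over untreated, PGCC and daughter SKOV3, so that its daughter pair differed by -0.29.

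ERBB2 carried one of the widest differences among receptors. Its level was 1127, 1778 and 1173 TPM in untreated, PGCC and daughter SKOV3 and 14.1, 8.20 and 13.7 TPM in Hey. The difference between the untreated lines was -6.22, and every SKOV3 library was above every Hey library. ERBB2 lies at chr17:39687914-39730426 on GRCh38, in the 17q12 region. Of the 9 other protein-coding genes tested whose start lay within 250 kb of that of ERBB2, 7 were higher in SKOV3 and 0 in Hey, with a median of -2.22. Over a window of 2 Mb either side, 54 others were tested, 23 were higher in SKOV3 and 5 in Hey, with a median of -0.85. The adaptor gene GRB7 was at 26.9 TPM in SKOV3 and 0.0920 TPM in Hey, STARD3, a cholesterol transporter, at 156 TPM in SKOV3 against 32.7 TPM in Hey, and PGAP3, which acts on GPI anchors, at 26.8 TPM in SKOV3 against 2.77 TPM in Hey. PPP1R1B, the phosphatase inhibitor DARPP-32, stood at 669, 987 and 976 TPM in SKOV3 and was listed at 0 in all 3 Hey libraries. MIEN1 was at 56.8 TPM in SKOV3 against 22.3 TPM in Hey. Farther along, IGFBP4 and the cytokine gene CSF3 had higher levels in Hey within the same window, with CSF3 at 4.39 TPM and listed at 0 in SKOV3. DNA copy number was not measured in these files, and its part in the levels was not tested.

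The other genes of the receptor family were lower and mixed. Of 12 ERBB receptors, ligands and feedback genes tested, 3 were higher in Hey and 7 in SKOV3. EGFR was at 164 TPM in Hey against 67.1 TPM in SKOV3, with its ligand HBEGF at 28.5 TPM in Hey against 9.75 TPM in SKOV3 and its feedback inhibitor ERRFI1 at 146 TPM in Hey against 42.1 TPM in SKOV3. The ligands AREG and NRG1 were higher in SKOV3, at 17.5 TPM in SKOV3 against 0.429 TPM in Hey and 51.5 TPM in SKOV3 against 4.0 TPM in Hey. Among 34 other receptor tyrosine kinases and ligands, 9 were higher in each line. DDR2, a collagen receptor, was at 66.7 TPM in Hey against 0.647 TPM in SKOV3 and FGF5 at 48.1 TPM in Hey against 0.714 TPM in SKOV3, while FGF18 was at 14.2 TPM in SKOV3 and 0.0995 TPM in Hey.

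Genes that respond to RAS-MAPK signalling were more often higher in Hey. Of 22 tested, 10 were higher in Hey and 4 in SKOV3, with a median of 0.91. DUSP6, a phosphatase that turns off ERK, was at 80.1, 74.7 and 62.7 TPM in Hey and 6.68, 5.37 and 11.9 TPM in SKOV3. SPRY2, another feedback inhibitor, was at 89.6 TPM in Hey against 8.83 TPM in SKOV3, and the ETS factor ETV5 at 94.8 TPM in Hey against 13.8 TPM in SKOV3. The immediate early gene EGR1 went the other way, at 331 TPM in SKOV3 and 103 TPM in Hey, as did IER3 at 245 TPM in SKOV3 against 85.5 TPM in Hey and LIF at 18 TPM in SKOV3 against 5.85 TPM in Hey.

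Most genes of the p53 pathway were higher in Hey. Of 41 tested genes of the list, 25 were higher in Hey and 2 in SKOV3, with a median of 1.46 against -0.35 over all genes, and 12.2% and 26.7% of all genes called. CDKN1A, which encodes the cell cycle inhibitor p21, was at 148, 480.0 and 89.4 TPM in untreated, PGCC and daughter Hey and 4.76, 6.84 and 3.73 TPM in SKOV3. MDM2, a ubiquitin ligase that limits the pathway, was at 121, 672 and 269 TPM in Hey and 36.3, 18 and 51.9 TPM in SKOV3. EDA2R, a receptor of the TNF family, was at 25.4 TPM in Hey and was listed at 0 in SKOV3, and TRIM22 was at 48.9 TPM in Hey against 1.56 TPM in SKOV3. The members higher in SKOV3 were CDIP1, at 17.8 TPM and listed at 0 in Hey, and the lysosomal enzyme FUCA1, at 15.8 TPM in SKOV3 against 1.99 TPM in Hey. In the other libraries, 25 of the same 41 genes were higher in Hey between the PGCC libraries and 28 between the daughter libraries, and 20 were higher in Hey in all 3 pairs.

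Promoters of the p53 list were searched for a motif of degenerate letters known as the p53 half-site, on both strands. The search was added after the values were seen. RefSeq promoter windows on GRCh38.p14 run from 250 bases before to 50 bases after each gene start, and 35 of the 45 genes of the list had one. A half-site was found in 9 of these 35 genes, 25.7%, and in 6.63% of all 35116 windows. The share of the list counts genes, which can have several windows, and the other share counts windows, so they are unlike measures. Of the genes with a window, 6 of the 19 higher in Hey, 0 of the 2 higher in SKOV3 and 2 of the 13 that were not called held a half-site. A pair of half-sites with at most 3 bases between them was found in DDB2 and in 7 of all the windows. Stretches of 90 or 100 bases around the motif, cut from the windows of 4 genes that were higher in Hey, are shown because they put the motif beside a measured level, with the half-site in capitals and, in DDB2, the pair with its spacer in capitals.
DDB2, chr11:47214924-47215023, plus strand: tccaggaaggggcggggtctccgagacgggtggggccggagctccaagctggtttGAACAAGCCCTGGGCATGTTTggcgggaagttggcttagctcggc
FAS, chr10:88991269-88991358, plus strand: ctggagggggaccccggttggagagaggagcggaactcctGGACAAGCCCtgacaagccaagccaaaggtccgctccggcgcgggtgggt
AEN, chr15:88621266-88621355, plus strand: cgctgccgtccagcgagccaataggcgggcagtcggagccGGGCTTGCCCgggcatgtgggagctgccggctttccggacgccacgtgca
FDXR, chr17:74872956-74873045, minus strand: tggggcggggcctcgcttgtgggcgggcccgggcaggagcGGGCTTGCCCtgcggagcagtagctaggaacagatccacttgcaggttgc
DDB2, a DNA damage sensor, was at 33.9 TPM in untreated Hey and 12.7 TPM in untreated SKOV3. FAS, a death receptor, was at 50.7 TPM in Hey against 9.52 TPM in SKOV3, AEN, a nuclease induced in apoptosis, at 38.8 TPM in Hey against 4.47 TPM in SKOV3, and FDXR, a mitochondrial reductase, at 10.7 TPM in Hey against 1.52 TPM in SKOV3. A match is a description of letters, and binding was not measured.

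At the 9p21 locus, the cell cycle inhibitors were at or near 0 in both lines, and the neighbour MTAP differed. CDKN2A (chr9:21967752-21995301), which encodes p16 and p14ARF, was at 0.0420, 0 and 0 TPM in Hey and 0.0430, 0 and 0 TPM in SKOV3, and CDKN2B was listed at 0 in all 6 libraries. MTAP (chr9:21802636-21937651), an enzyme of methionine salvage, was at 0.0119, 0.0128 and 0.0675 TPM in Hey and at 21.2, 14.8 and 20.2 TPM in SKOV3. Of 6 other genes tested within 2 Mb of CDKN2A, 2 were higher in SKOV3, MTAP and IFNE, and 1 was higher in Hey, KLHL9 at 26.6 TPM in Hey against 11.2 TPM in SKOV3. FOCAD and MLLT3, farther out, were at 22.1 TPM in Hey and 14.4 TPM in SKOV3 and at 19 TPM in Hey and 15.6 TPM in SKOV3, and neither reached the threshold. In the list of RB pathway genes and CDK inhibitors, which holds MTAP, 4 of 22 genes tested were higher in Hey and 6 in SKOV3, MTAP among the latter. These are 18.2% and 27.3%, beside 12.2% and 26.7% of all genes. The list median of -0.43 was near the -0.35 of all genes. MYC was at 253 TPM in Hey against 50.4 TPM in SKOV3, CCND1, which encodes cyclin D1, at 223 TPM in Hey against 92.1 TPM in SKOV3, and CCND2 at 4.98 TPM in Hey against 0.0154 TPM in SKOV3, while CCNE1, which encodes cyclin E1, was at 20.1 TPM in SKOV3 and 3.84 TPM in Hey.

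UQCRH had the widest difference in favour of Hey among protein-coding genes that reached a TPM of 10. It encodes a subunit of complex III of the respiratory chain and lies at chr1:46303698-46316776. Its level was 607, 635 and 447 TPM in Hey and 0.146, 0 and 0 TPM in SKOV3. The adjacent gene LRRC41 (chr1:46261196-46303616), chosen after its values were seen, was at 34.5, 27.1 and 21 TPM in Hey and 0.0942, 0.135 and 0.928 TPM in SKOV3. Beyond them, POMGNT1 was at 44.6 TPM in Hey and 36.4 TPM in SKOV3 and RAD54L at 14.2 TPM in Hey and 20.4 TPM in SKOV3, with neither past the threshold, and NSUN4 was at 5.22 TPM in untreated Hey against 1.47 TPM in untreated SKOV3 but differed by -0.20 and -0.38 in the PGCC and daughter pairs. Of the 8 other genes tested within 250 kb, 2 were higher in untreated Hey, LRRC41 and NSUN4, and 3 in untreated SKOV3. UQCRH has a near-identical copy in the genome, so reads could be split between them.

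**Figure D3:**
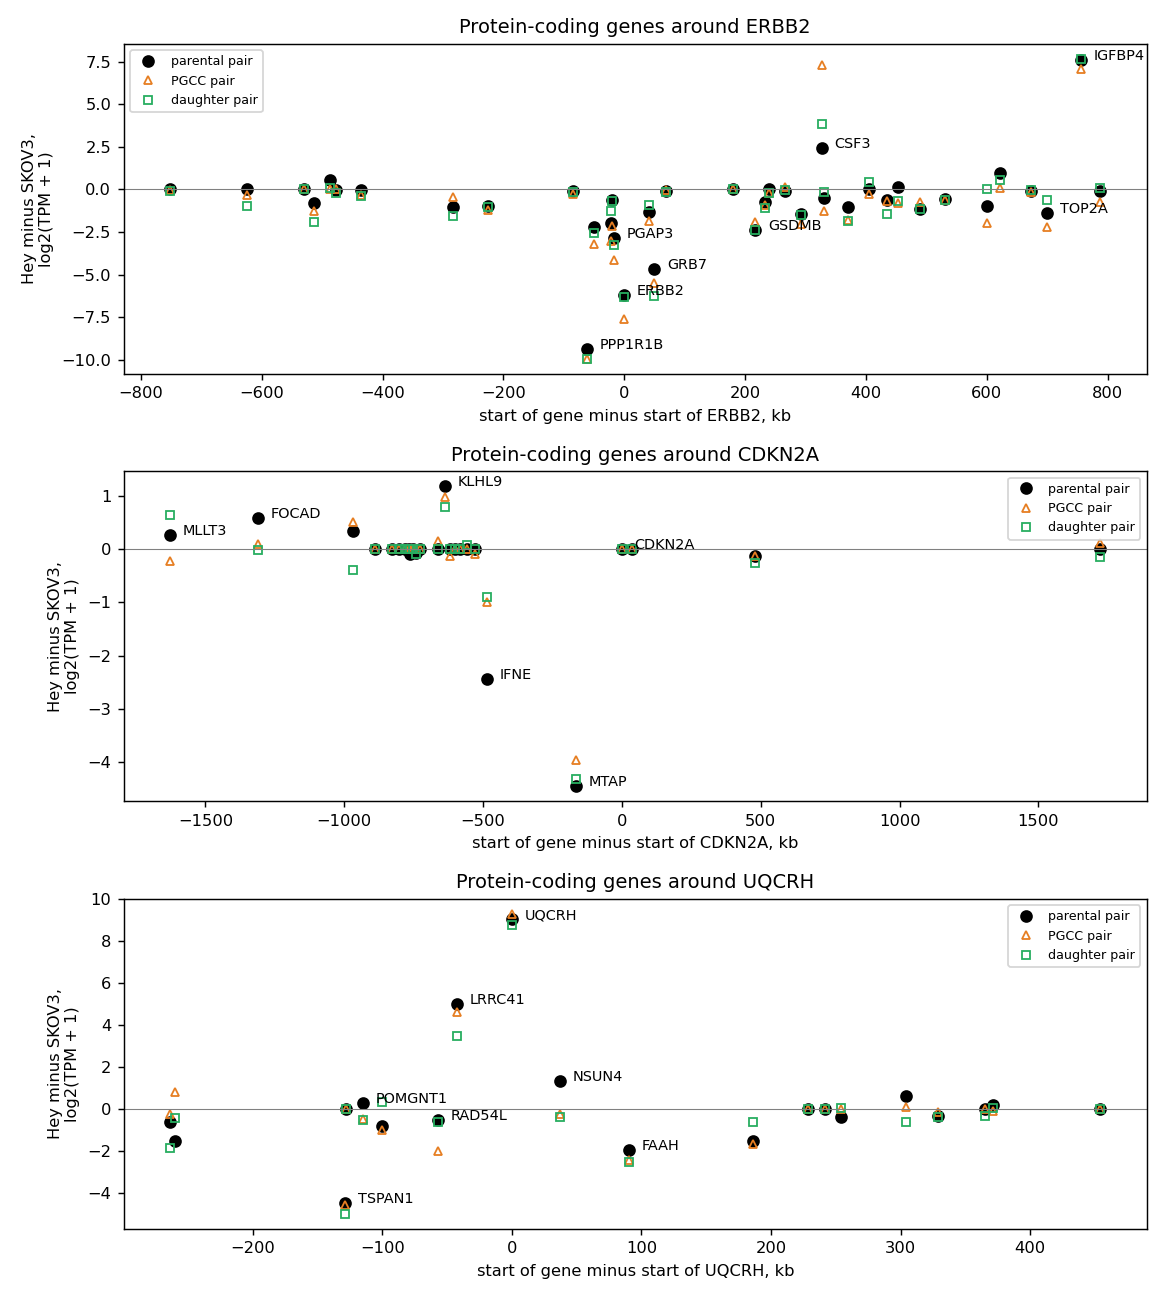
Differences of log2(TPM + 1), Hey minus SKOV3 (y axis), of protein-coding genes by the distance of their start from that of ERBB2, CDKN2A or UQCRH in kb (x axis), for the untreated (parental), PGCC and daughter pairs. Around ERBB2 the lowest points of the untreated pair are PPP1R1B, ERBB2 and GRB7 at -9.39, -6.22 and -4.67. In the same pair, MTAP at -4.45 is the lowest point near CDKN2A, and UQCRH and LRRC41 at 9.05 and 5.02 are the highest in their window.

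Inflammatory genes, on which the rest of the series bears, were higher in either untreated line by gene. Of 29 cytokine and chemokine genes tested, 7 were higher in Hey and 12 in SKOV3, with a median of -0.38, near that of all genes. IL6 was at 8.74 TPM in Hey and 10.5 TPM in SKOV3, and CXCL8, which encodes interleukin-8, at 149 TPM in Hey and 191 TPM in SKOV3, so neither reached the threshold before treatment. IL1B was higher in Hey, at 284, 2105 and 265 TPM in untreated, PGCC and daughter libraries against 13.5, 9.23 and 0.305 TPM in SKOV3. CSF3 was at 4.39 TPM in Hey and listed at 0 in every SKOV3 library. TNFSF10, which encodes TRAIL, was at 9.47 TPM in SKOV3 and 0.159 TPM in Hey, IL32 at 59.2 TPM in SKOV3 against 6.10 TPM in Hey and CXCL16 at 7.12 TPM in SKOV3 against 0.0352 TPM in Hey. A loose form of the NF-kB motif (GGG, then any 5 bases, then CC, on either strand) was present in a promoter window of 22 of the 32 cytokine genes that had one, 68.8%. It was present in 58.7% of all windows, a share of windows and not of genes. Some genes have several windows, so no difference is read from these shares. Of 26 NF-kB subunits and feedback genes tested, 1 was higher in Hey and 6 in SKOV3, the latter 23.1% beside 26.7% of all genes, and the counts were 3 and 4 with the median ratio and 3 and 3 after quantile normalization. The gene higher in Hey was ICAM1, an adhesion molecule induced by NF-kB, at 12.3 TPM in Hey against 0.282 TPM in SKOV3, and in the daughter pair its difference had the opposite sign at -3.07. TNFAIP2 was at 94.5 TPM in SKOV3 against 22.7 TPM in Hey and REL at 8.81 TPM in SKOV3 against 1.97 TPM in Hey.

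Of 41 interferon-stimulated genes tested, 5 were higher in Hey and 12 in SKOV3, with a median of -0.19. These are 12.2% and 29.3%, beside 12.2% and 26.7% of all genes, so the list as a whole was near the background. BST2, which encodes the viral restriction factor tetherin, stood at 60.3, 108 and 36.2 TPM in SKOV3 and was listed at 0 in untreated Hey. HERC5, the ligase for ISG15, was at 55 TPM in SKOV3 against 2.07 TPM in Hey and IFITM1 at 26.7 TPM in SKOV3 against 0.412 TPM in Hey. In the other direction stood TRIM22, IFI44L at 13.5 TPM in Hey against 0.810 TPM in SKOV3, and IRF9, a partner of STAT proteins, at 7.46 TPM in Hey against 0.325 TPM in SKOV3. The interferon-response motif (GAAA, then any 2 bases, then GAAA, on either strand) was found in the windows of 27 of the 38 genes of the list that had one, 71.1%. It was found in 3.57% of all windows, counted by window, while a gene of the list can have several. It was held by 2 of the 4 genes higher in Hey, 9 of the 12 higher in SKOV3 and 12 of the 16 that were not called. Stretches of 90 bases around the motif are shown for both directions because genes that carry the same motif had opposite differences, with the first match in capitals.
BST2, chr19:17405711-17405800, minus strand: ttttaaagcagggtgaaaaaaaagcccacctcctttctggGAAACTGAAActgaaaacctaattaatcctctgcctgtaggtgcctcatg
IFITM1, chr11:313960-314049, plus strand: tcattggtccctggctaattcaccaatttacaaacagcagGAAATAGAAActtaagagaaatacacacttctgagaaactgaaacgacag
IFI44L, chr1:78620244-78620333, plus strand: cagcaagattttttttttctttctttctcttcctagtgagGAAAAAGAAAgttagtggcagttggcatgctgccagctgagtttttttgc
The motif stood in the windows of BST2 and IFITM1, which were higher in SKOV3, and in that of IFI44L, which was higher in Hey.

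Single genes of antigen presentation and of the immune cell surface differed. Of 26 genes of MHC class I and antigen processing tested, 3 were higher in Hey and 5 in SKOV3, or 11.5% and 19.2% beside 12.2% and 26.7% of all genes, and 6 and 4 with the median ratio. HLA-F was at 41.8 TPM in SKOV3 and 0.128 TPM in Hey, and it belongs to a family of similar genes whose reads can be shared. Of the MHC class II genes 1 was tested, HLA-DMA, at 0.861 TPM in Hey and 1.39 TPM in SKOV3. Among 20 checkpoint ligands and surface antigens, 8 were higher in Hey and 3 in SKOV3. PDCD1LG2, which encodes PD-L2, was at 16.1 TPM in Hey against 0.578 TPM in SKOV3 and MCAM, an adhesion molecule, at 22.7 TPM in Hey against 0.616 TPM in SKOV3. TNFSF9, VSIR and CD70 were higher in SKOV3, with CD70 at 55.4 TPM in SKOV3 against 19.2 TPM in Hey.

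Genes that bear on paclitaxel differed in part. Paclitaxel binds tubulin, and 10 of 20 tubulin-related genes tested were higher in SKOV3 and 2 in Hey, with a median of -1.01. TUBB3, an isotype often studied in taxane resistance, was at 4.74, 18 and 8.75 TPM in Hey and 42.8, 87.8 and 53.1 TPM in SKOV3. TUBA4A was at 138 TPM in SKOV3 against 7.11 TPM in Hey, and TUBB6 at 314 TPM in Hey against 143 TPM in SKOV3. ABCB1, the drug efflux pump P-glycoprotein, was near 0 in both untreated lines, at 0.195 TPM in Hey and 0.329 TPM in SKOV3, and stood at 0.195, 1.60 and 43.3 TPM over untreated, PGCC and daughter Hey and 0.329, 0.168 and 231 TPM over those of SKOV3. Of 14 ABC transporters tested, 0 were higher in Hey and 2 in SKOV3, and 2 in each with the median ratio. Of 15 aldehyde dehydrogenases, 2 were higher in Hey and 6 in SKOV3, and 3 in each with the median ratio. ALDH1A3, which makes retinoic acid, was at 247, 387 and 198 TPM in Hey and 12.2, 8.76 and 9.14 TPM in SKOV3, and ALDH3A1 was at 4.95 TPM in SKOV3 and listed at 0 in Hey.

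Cell cycle genes were called higher in SKOV3 at shares somewhat above that of all genes, but not for both lists with the median ratio. Of 43 S-phase genes tested, 15 were higher in SKOV3 and 0 in Hey, and of 54 G2/M genes 18 and 0, with medians of -0.83 and -0.84. The shares higher in SKOV3 were 34.9% and 33.3%, beside 26.7% of all genes. CLSPN, a checkpoint mediator, was at 45.8 TPM in SKOV3 against 8.21 TPM in Hey, and NUSAP1, a spindle protein, at 364 TPM in SKOV3 against 120.5 TPM in Hey. After division by the median ratio the medians were -0.48 and -0.49, with 10 of 43 and 10 of 54 genes higher in SKOV3 and 2 and 0 in Hey. The median of all genes moved as well, from -0.35 to -0.0067. Of all genes, 19.9% were then higher in SKOV3, so the G2/M share was no longer above that of all genes. Quantile normalization gave 11 of 43 and 14 of 54 genes higher in SKOV3 and 1 and 0 in Hey. Of all genes, 18.3% were then higher in SKOV3, and both lists were above that share. In the daughter pair the medians were -0.14 and 0.10.

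Stress and metabolism lists held single genes with wide differences. Of 26 NRF2 target genes, 11 were higher in SKOV3 and 0 in Hey. FTH1, the ferritin heavy chain that stores iron, was at 2119, 4701 and 1907 TPM in Hey and 18640.0, 21359 and 12206 TPM in SKOV3, and it has many processed copies in the genome that can share reads. UGT1A6 was at 33.4 TPM in SKOV3 and listed at 0 in all 3 Hey libraries, though it shares exons with the other UGT1A genes, and GSTM3 was at 17.8 TPM in SKOV3 against 0.0574 TPM in Hey. Metallothioneins, which bind zinc and copper, were led by MT1E, at 138, 115 and 68.7 TPM in Hey and listed at 0 in every SKOV3 library, and 3 of 5 tested were higher in Hey and 1 in SKOV3. They are a family of near-identical genes, so their values are uncertain. Of 12 S100 genes, 9 were higher in SKOV3 and 0 in Hey, with S100A2 at 1949 TPM in SKOV3 against 125 TPM in Hey. Of 35 glycolysis and hypoxia genes, 6 were higher in Hey and 7 in SKOV3, and 11 and 6 with the median ratio, with the glucose transporter SLC2A3 at 24 TPM in Hey against 0.0885 TPM in SKOV3 and HIF1A at 507 TPM in SKOV3 against 90.6 TPM in Hey. For cholesterol and fatty acid synthesis the counts were 5 and 4 of 28, or 17.9% and 14.3%, beside 12.2% and 26.7% of all genes. ACACA, the committed enzyme of fatty acid synthesis, was at 43.7 TPM in SKOV3 against 15.6 TPM in Hey.

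Developmental and signalling lists differed by member. TGF-beta, activin and BMP genes gave 8 higher in Hey and 13 in SKOV3 of 34, with INHBA, the activin A subunit, at 51.7 TPM in Hey against 0.484 TPM in SKOV3 and SMAD6, an inhibitor of BMP signalling, at 13.8 TPM in SKOV3 against 0.0961 TPM in Hey. WNT genes gave 6 and 13 of 29, but 9 and 8 with the median ratio or quantile normalization, with WNT5B at 38 TPM in Hey and 0.0583 TPM in SKOV3 and WNT7A at 22.2 TPM in SKOV3 and 0.244 TPM in Hey. Of 26 HOX genes 4 were higher in Hey, among them HOXA10 at 13.8 TPM in Hey against 1.59 TPM in SKOV3, and 9 in SKOV3, among them HOXB8 at 24.5 TPM in SKOV3 against 0.248 TPM in Hey. Nuclear hormone receptors gave 5 and 4 of 25, or 20% and 16%, beside 12.2% and 26.7% of all genes. The oestrogen receptor gene ESR1 was at 5.35 TPM in SKOV3 and listed at 0 in Hey. Of the cancer-testis antigens 4 were tested, 1 was higher in Hey and 3 in SKOV3, with PRAME at 18.6 TPM in SKOV3 and listed at 0 in all 3 Hey libraries.

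**Figure D4:**
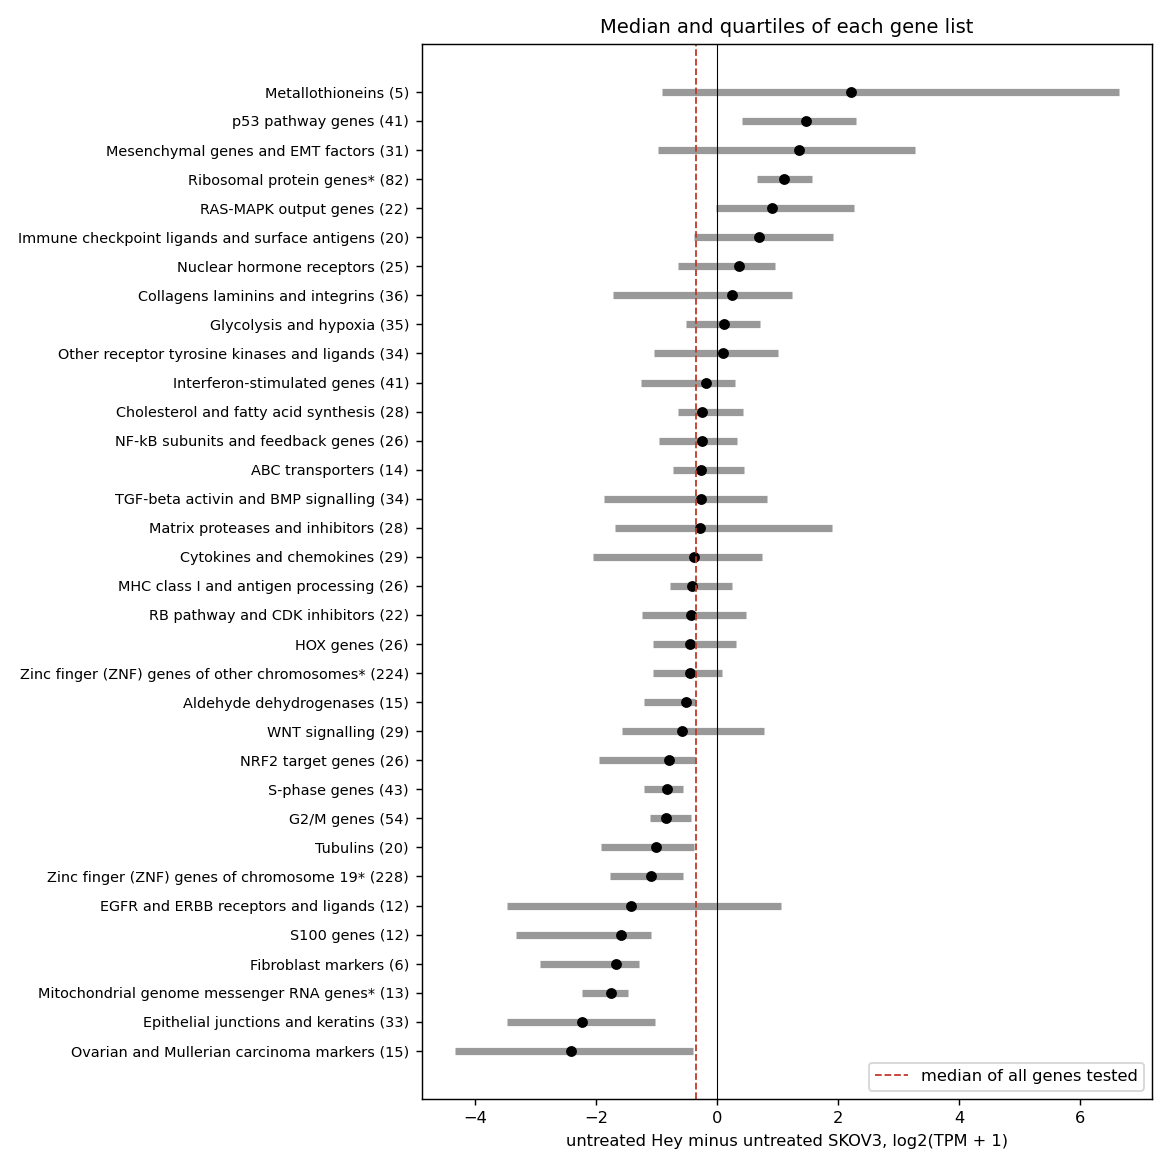
Median (point) and quartiles (bar) of the difference of log2(TPM + 1), untreated Hey minus untreated SKOV3 (x axis), over the tested members of each gene list with at least 5 of them, the number in brackets. A star marks lists added after the values were seen. Metallothioneins, p53 pathway genes and mesenchymal genes stand highest at 2.22, 1.46 and 1.35, ovarian and epithelial lists lowest at -2.41 and -2.24, and the dashed line marks the median of all genes at -0.35.

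Markers of cell types other than carcinoma were mostly at or near 0. The leukocyte genes PTPRC, CD3E and CD14 were all below 0.2 TPM in both lines, and of 15 leukocyte markers 1 was tested, FCER1G, with summed levels over the list of 0.745 TPM in Hey and 1.91 TPM in SKOV3. Of 12 fibroblast markers 6 were tested, 1 was higher in Hey, FAP at 11.3 TPM in Hey against 0.249 TPM in SKOV3, and 5 in SKOV3, among them MFAP5 and LUM at 8.84 TPM, while COL3A1 was listed at 0 in both and COL1A2 was at 0 TPM in Hey and 0.103 TPM in SKOV3. Summed over that list, the level was 15.3 TPM in Hey and 197 TPM in SKOV3, of which FAP alone gave 11.3 TPM in Hey and MFAP5 alone 170.2 TPM in SKOV3. Endothelial markers set the lines apart in part. CDH5, which encodes VE-cadherin, was at 48.5, 35.5 and 33.2 TPM in Hey and 0, 0.0347 and 2.56 TPM in SKOV3, and the receptor TIE1 at 136, 130.3 and 139.9 TPM in Hey and 0.425, 0.849 and 0.0346 TPM in SKOV3. The factor ERG was at 1.72 TPM in untreated Hey and 0.0103 TPM in untreated SKOV3, a difference of 1.43. Other markers of the list were near 0: in untreated Hey PECAM1 was at 0.272 TPM, VWF at 0.0305 TPM and KDR at 0.320 TPM, and CLDN5 and EMCN were listed at 0. Over the 10 markers the sum was 188 TPM in Hey and 1.54 TPM in SKOV3, and 3 were tested, all higher in Hey.

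To see whether the differences between the untreated lines were present in other libraries of the same lines, the PGCC pair and the daughter pair were measured over the same 15208 genes. These pairs share no library with the untreated pair. In the PGCC pair 12.6% of the genes were higher in Hey and 29.4% in SKOV3, and in the daughter pair 11.8% and 27.8%. Of the 1861 genes higher in untreated Hey, 1088 were also higher in Hey in the PGCC pair and 985 in the daughter pair, 58.5% and 52.9%. Of the 4061 genes higher in untreated SKOV3, 2487 and 2408 were again higher in SKOV3, 61.2% and 59.3%. In all 3 pairs 717 genes were higher in Hey and 1762 in SKOV3, 38.5% and 43.4% of those called in the untreated pair. The opposite sign past the threshold was found for 50 and 105 of the Hey genes and for 80 and 85 of the SKOV3 genes, in the PGCC and daughter pairs. Across genes, Pearson's r with the untreated difference was 0.73 for the PGCC pair and 0.68 for the daughter pair, given as a description since genes share their libraries. Of the 670 genes higher in Hey by at least 2, 442 were called in Hey in both other pairs, 66.0%. Of the 1235 in SKOV3, 873 were called in SKOV3 in both, 70.7%. These shares are above 38.5% and 43.4%, but a wide difference can shrink and still pass the same threshold, so no result is read from that.

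**Figure D5:**
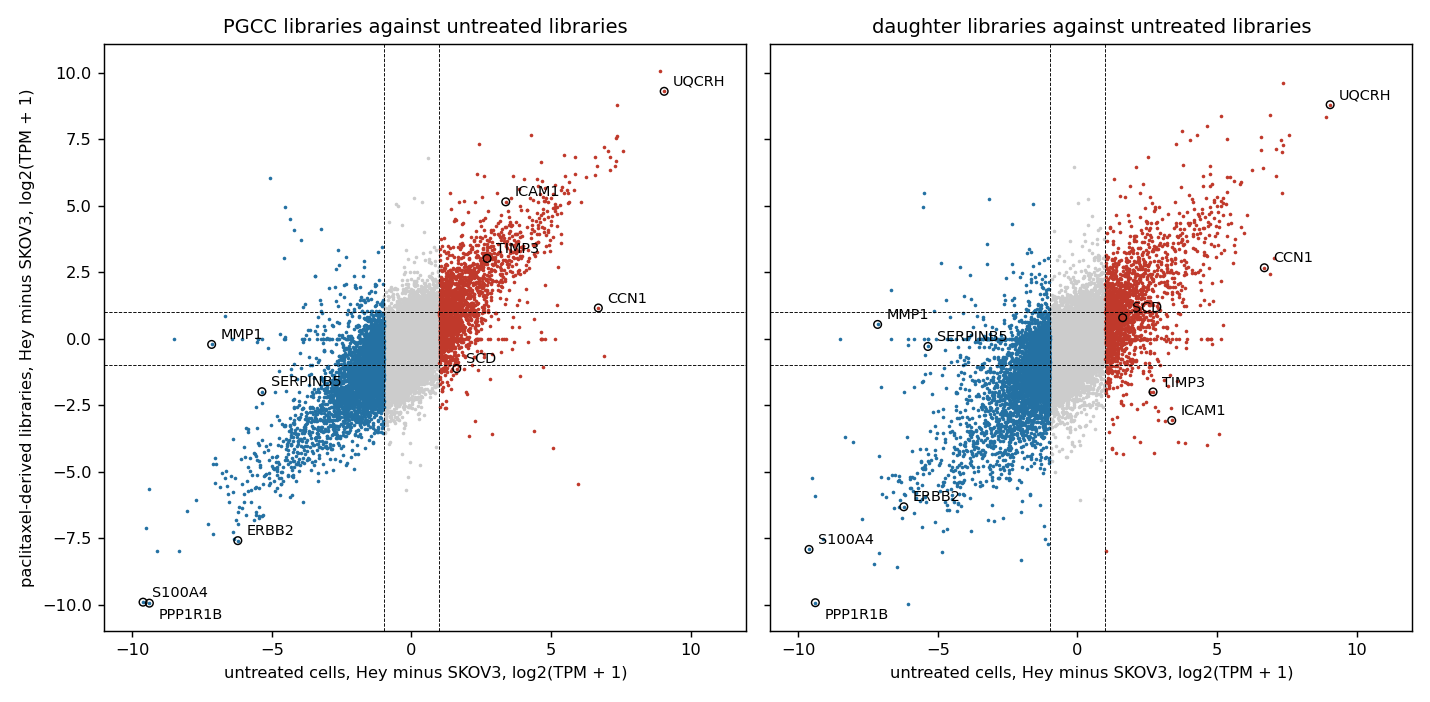
Difference of log2(TPM + 1), Hey minus SKOV3, in the PGCC pair (left) and the daughter pair (right) on the y axis, against the untreated pair on the x axis, with 1 point per gene tested and dashed lines at 1 and -1. UQCRH, S100A4, PPP1R1B and ERBB2 stay at the corners in both panels, MMP1 and SERPINB5 move towards 0 and ICAM1 and TIMP3 change sign in the daughter pair.

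A fit over all 6 libraries, with the line as the term of interest, the state as a second term and the 3 states standing in for replicates, was made with limma and Benjamini-Hochberg adjustment. It asks which genes differ between the lines whatever the state, and it is no test of the untreated pair. Of 18214 genes that reached a TPM of 1 in any library, 967 were higher in Hey at an adjusted p under 0.05, 5.31%, and 2277 in SKOV3, 12.5%. Among the genes called in the untreated pair, 888 of the 1861 higher in Hey and 2069 of the 4061 higher in SKOV3 had an adjusted p under 0.05 in limma, in a fit that includes the untreated libraries. In the p53 list 23 of 41 genes were higher in Hey and 1 in SKOV3, and in the epithelial list 2 and 19 of 33. The counts rest on 2 residual degrees of freedom. Without the PGCC libraries or without the daughter libraries limma called 0 genes at an adjusted p under 0.05 in either direction, while 1194 and 1515 genes in Hey and 2876 and 3470 in SKOV3 had an unadjusted p under 0.05, and without the untreated libraries it called 149 in Hey and 211 in SKOV3.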

How the data were processed

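RNA of untreated Hey and untreated SKOV3 cells was sequenced as 1 library each, beside 4 libraries taken after paclitaxel. The submitters' processing notes name fastp, Salmon 0.14.1 and hg38, and the authors deposited Salmon abundances. The deposited unit is TPM, 1 value per gene symbol and library, and the annotation release and the step from transcripts to genes are not given in the sources used here. TPM holds no read counts, so depth and counting error are unknown and no count test was run.

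Differences of log2(TPM + 1) were computed with pandas 2.3.3 and numpy 2.4.6 over genes that reached a TPM of 1 in either untreated library. The fit over 6 libraries used limma 3.58.1 with an intensity trend. Gene positions and types are those of GENCODE 44 on GRCh38, found by symbol for 13405 of 15208 genes (88.1%). Named genes are the 12 widest differences in each direction among protein-coding genes that reached a TPM of 10, the 3 widest in each direction of 34 lists, and a fixed set of genes with the neighbours of ERBB2 and CDKN2A. Other named genes, mostly further members of the lists, were picked after their values were seen. The members and lists were chosen with earlier results of these data known. Alternatives were another pseudocount, filter, threshold or scaling, and a correction for GC content and transcript length. Steps were tested on simulated data. Some genes named by these rules are not reported here.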

Additional observations from a re-analysis of the deposited data

Results flagged for a closer look

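Among the named genes, 4 had a difference past the threshold in the untreated lines and past it with the opposite sign in another pair of libraries. Each pair is 1 library per line, so the change of sign was not tested. ICAM1 differed by 3.38 between the untreated lines and by -3.07 between the daughter libraries, with 12.3, 123 and 2.32 TPM in untreated, PGCC and daughter Hey and 0.282, 2.49 and 27 TPM in SKOV3. TIMP3, an inhibitor of metalloproteases, differed by 2.71 and by -2.00 in the daughter pair, with 7.17, 8.95 and 0.0598 TPM in Hey and 0.250, 0.223 and 3.24 TPM in SKOV3. MAGEA12, a cancer-testis antigen, differed by 1.23 and by -4.13 in the daughter pair, and it was listed at 0 in untreated SKOV3 and in daughter Hey. SCD, the desaturase that makes oleic acid, differed by 1.62 and by -1.12 in the PGCC pair, with 149, 26.5 and 80.6 TPM in Hey and 47.6, 58.9 and 46.1 TPM in SKOV3.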

How the results depend on the processing

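With 1 library per side and no count of reads, the table gives neither an error nor a depth. Called genes were 1861 in Hey and 4061 in SKOV3. A TPM of at least 5 gave 2663 in SKOV3, and a threshold of 1.5-fold gave 2931 and 6211, a threshold of 4-fold 670 and 1235, and removal of the GC and length trend, which also removes the median shift and leaves 13405 genes, 2216 in SKOV3. Those 13405 genes with the trend kept, an alternative chosen after seeing the data, gave 1639 and 3324. The other settings stayed within 1.5 times of both counts, among them the mitochondrial and ribosomal protein genes left out, which was chosen after seeing the data and gave 2277 and 3987. Genes called in all 3 pairs, 717 in Hey and 1762 in SKOV3, became 906 to 1088 and 2278 to 2487 when 1 pair was left out, where fewer pairs must agree. The limma counts of 967 and 2277 ranged from 0 to 149 and from 0 to 211 when 1 state was left out, which leaves 1 residual degree of freedom, and median-ratio scaling gave 1355 and 1580. No list median or named gene past a difference of 1 changed sign under any scaling, pseudocount or trend setting. Of the genes with values in the report, CDH2 came to 0.98 with mitochondrial genes left out, MUC16 to -0.82 and GAPDH to 0.86 under quantile normalization, all under the threshold. Some smaller list medians changed sign, judged against 0, under at least 1 setting. These were proteases, other receptor tyrosine kinases, cytokines, NF-kB, interferon-stimulated genes, MHC class II, ABC transporters, TGF-beta and cholesterol genes. No direction is given for them. The median over all genes moved too, from -0.35 to -0.0067 with the median ratio and 0.016 after quantile normalization. A list can thus change sign without a change against that median.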

Other observations

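Some genes were on in every library of 1 line and off in every library of the other. With a TPM of at least 10 in all 3 libraries of a line and under 0.5 in all 3 of the other, 39 protein-coding genes were on in Hey and 65 in SKOV3, a description with no test. On in Hey were the transcription factors TBX3, at 25.4, 25.3 and 33.1 TPM in untreated, PGCC and daughter Hey, and TFAP2C, at 10.5, 12 and 29.7 TPM, the neural adhesion gene NCAM1 at 20.9, 11.2 and 29.1 TPM, the growth factor gene GDNF at 13.5, 14.4 and 13.2 TPM and the GTPase gene RAC2, best known from blood cells, at 75.6, 95.7 and 96.5 TPM. On in SKOV3 were MGMT, which repairs alkylated guanine, at 15.4, 30.5 and 26.4 TPM and listed at 0 in all 3 Hey libraries, the tryptophan-degrading enzyme IDO1 at 28.1, 48.8 and 85.7 TPM, the basal keratin KRT5 at 23.3, 39.4 and 85.6 TPM and the vitamin D hydroxylase CYP24A1 at 33.4, 41.8 and 29.4 TPM. These genes were chosen from the 104 after their values were seen.

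Another adjacent pair near 0 in SKOV3 lay on the short arm of chromosome 17. It was picked from the genes on in Hey after their values were seen, and the genes around it were not counted. UBE2G1 (chr17:4269259-4366675), a ubiquitin-conjugating enzyme, was at 41.9, 39.9 and 39.7 TPM in Hey and 0.216, 0.223 and 0.123 TPM in SKOV3, and ANKFY1 (chr17:4163821-4263995), an endosomal protein, at 17.1, 10.5 and 20.1 TPM and 0, 0.130 and 0 TPM.

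Zinc finger genes of chromosome 19, a list added after seeing the data, were mostly higher in SKOV3. Of 228 tested, 122 were higher in SKOV3 and 3 in Hey, with a median of -1.09, beside 61 and 11 of 224 ZNF genes elsewhere, with a median of -0.45. Their reads can be shared between similar copies. Ribosomal protein genes, also added after seeing the data, gave 48 of 82 higher in Hey and 1 in SKOV3, with a median of 1.10, and the share of all TPM they took was above 21% in each Hey library and at most 14.2% in each SKOV3 library. By chromosome, the median over protein-coding genes was lowest on 18 at -0.92 and 21 at -0.80, apart from the 13 genes of the mitochondrial genome at -1.76 (0.60 in the PGCC pair and -0.90 in the daughter pair), and highest on 3 at 0.10, while the PGCC pair gave -0.60, -0.61 and 0.11 on 18, 21 and 3 and the daughter pair -0.31, -0.35 and 0.11. Chromosome 13 went from -0.09 in the untreated pair to 0.26 in the PGCC pair and 1.05 in the daughter pair. Spearman's correlation of the difference with GC content across genes was 0.067 in the untreated pair, -0.36 in the PGCC pair and 0.0091 in the daughter pair.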
